A study of Homo sapiens with 6 samples.

Results

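The transcripts described here are those of the ubiquitin-conjugating enzymes named UBE2 and of the USP deubiquitinases in MDA-MB-231 cells, an established human triple-negative breast cancer line. Members were taken by gene symbol from the authors' deposited table, as UBE2 followed by a letter and at most 1 digit, or USP followed by a number and at most 1 letter. The selection leaves out 1 further USP gene of the 76 rows that match, and any Y-linked copy. It gave 32 UBE2 genes and 43 USP genes, 75 of the 15917 genes listed, and the families are kept apart below. Total RNA was sequenced in 6 libraries, all from this line. Of these, 2 came from cells with a control hairpin (shCTRL), 2 from cells with the hairpin shRBMS3-B3 and 2 from cells with shRBMS3-C3, the last 4 being knockdowns of *RBMS3*, an RNA binding protein. The hairpins were delivered by lentivirus and the cells selected with puromycin, so control and knockdown cells share both treatments.

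Ubiquitin is passed from an activating enzyme (E1) to a conjugating enzyme (E2), and then, with a ligase (E3), to a lysine of a substrate. The E2 often decides which kind of ubiquitin chain is built, and a few E2 enzymes carry related modifiers such as NEDD8 and ISG15 instead. Deubiquitinases reverse the reaction, and the USP enzymes, cysteine proteases, are their largest family in human cells. In a tumour cell these enzymes set the life span of cell cycle regulators, the dose of DNA repair factors on chromatin and the sorting of receptors.

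The value available for each gene is the authors' mean normalized count, 1 number over libraries whose identity is not stated. It says how abundant a transcript was over the libraries that entered the mean, not how it differed between knockdown and control cells. The authors' fold changes and p-values for that contrast were not used, and no library was analysed by itself, so the loss of *RBMS3* in the knockdown cells was not examined. *RBMS3* itself has a mean normalized count of 272. Across the table the mean normalized count runs from 26.7 to 859682 with a median of 364. The depth of each library is unknown. No error over replicates can be given, so the order of neighbouring genes is a description without a test. To compare genes, the mean normalized count was divided by the length in kilobases of 1 representative transcript, which gives the level per kilobase. Its median was 152 over the 12408 listed protein-coding genes with a transcript in GENCODE release 44.

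The study links RBMS3 to an AUA element of the 3′ untranslated region (3′UTR). The element is 7 bases long and was searched on the transcript strand as A, G or T, then A or T, then ATA, then A or T, then A. Sites are shown for the members with many matches and for abundant members, to let the letters be seen beside the counts. Each line gives the 21 bases around the first match in the 3′UTR with the match in capitals, on the transcript strand, from GENCODE release 44 on GRCh38:

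UBE2C, chr20:45816919-45816939, plus strand: gtatattAAATAAAtgcattt

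UBE2K, chr4:39778590-39778610, plus strand: gctctgtAAATAAAgctaatt

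UBE2D1, chr10:58368776-58368796, plus strand: cattttcATATATAccagagt

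USP22, chr17:21001167-21001187, minus strand: gcatgttTTATAAAatgaatt

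USP8, chr15:50499093-50499113, plus strand: acataggTTATAAActagtta

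USP15, chr12:62404595-62404615, plus strand: acaagctAAATATAtatagga

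In *UBE2C*, *UBE2K* and many other genes the matched letters include AATAAA, the letters of the polyadenylation signal. The match shown starts at base 159 of 185 in the 3′UTR of *UBE2C* and at base 163 of 4358 in that of *UBE2K*. Whether AATAAA serves as a polyadenylation signal at these sites was not tested. AATAAA lies inside 70 of the 196 matches in UBE2 genes and 131 of the 399 matches in USP genes. The share over the matches of all listed genes was not computed, so these counts are not particular to the families. The study also reports AATAAA as the top motif among its mapped RBMS3 binding sites.

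The conjugating enzymes were abundant transcripts. Of the 32 UBE2 genes, 25 (78.1%) lay above the median level per kilobase of listed protein-coding genes, and 6 lay in the highest 10%. Their level per kilobase ranged from 21.0 for *UBE2W* to 3456 for *UBE2C*, with a median of 358. A small number of genes made up much of this. The top 3 genes gave 36.6% of the summed level per kilobase of the family, and the top 8 gave 62.0%.

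The highest transcript by level per kilobase was *UBE2C* (ENSG00000175063), which lies on chromosome 20 from 45812576 to 45816957. It encodes the E2 that starts ubiquitin chains for the anaphase-promoting complex in mitosis. Its mean normalized count was 2685 over a representative transcript of only 777 bases. Its level per kilobase of 3456 is at percentile 97.7 of listed protein-coding genes. The rank rests on this short length. By mean normalized count *UBE2D3* at 3036, *UBE2S* at 2990, *UBE2M* at 2847 and *UBE2G2* at 2798 were higher. *UBE2M* (ENSG00000130725), the E2 that carries NEDD8 to most cullins, followed with 2456 per kilobase. It lies on chromosome 19 from 58555712 to 58558954. *UBE2S*, which extends the chains begun by *UBE2C*, stood at 1168 per kilobase. Both E2 enzymes of the anaphase-promoting complex were thus among the 3 highest on that scale. The processed pseudogenes *UBE2MP1* and *UBE2SP1* share 20.6% and 17.3% of the 31-base runs of the *UBE2M* and *UBE2S* transcripts, and *UBE2SP1* is itself listed with a mean normalized count of 573. Reads could have been divided between these copies, and how they were assigned was not tested.

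The next 5 genes were *UBE2E3* at 1147, *UBE2V1* at 1125, *UBE2T* at 1003, *UBE2G2* at 831 and *UBE2A* at 815 per kilobase. *UBE2T* serves the Fanconi anaemia ligase, *UBE2G2* acts in the destruction of misfolded proteins of the endoplasmic reticulum, and *UBE2A* is a human counterpart of yeast Rad6. The level of *UBE2V1*, a partner of *UBE2N* without a catalytic cysteine of its own, is uncertain. Of the 31-base runs of its transcript, 97.9% also occur in *PEDS1-UBE2V1*, a read-through gene annotated on the same strand.

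At the lower end stood *UBE2W* at 21.0, *UBE2D1* at 66.7, *UBE2V2* at 91.2, *UBE2Q2* at 101 and *UBE2D4* at 102 per kilobase. *UBE2W*, which attaches ubiquitin to the amino terminus of proteins, has the longest representative transcript of the family, at 8379 bases. Its mean normalized count of 176 was next to that of *UBE2D1*, at 175, on a transcript of 2623 bases. The 7 UBE2 genes under the median of listed protein-coding genes were these 5, *UBE2B* at 141 and *UBE2F* at 112.

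**Figure D1:**
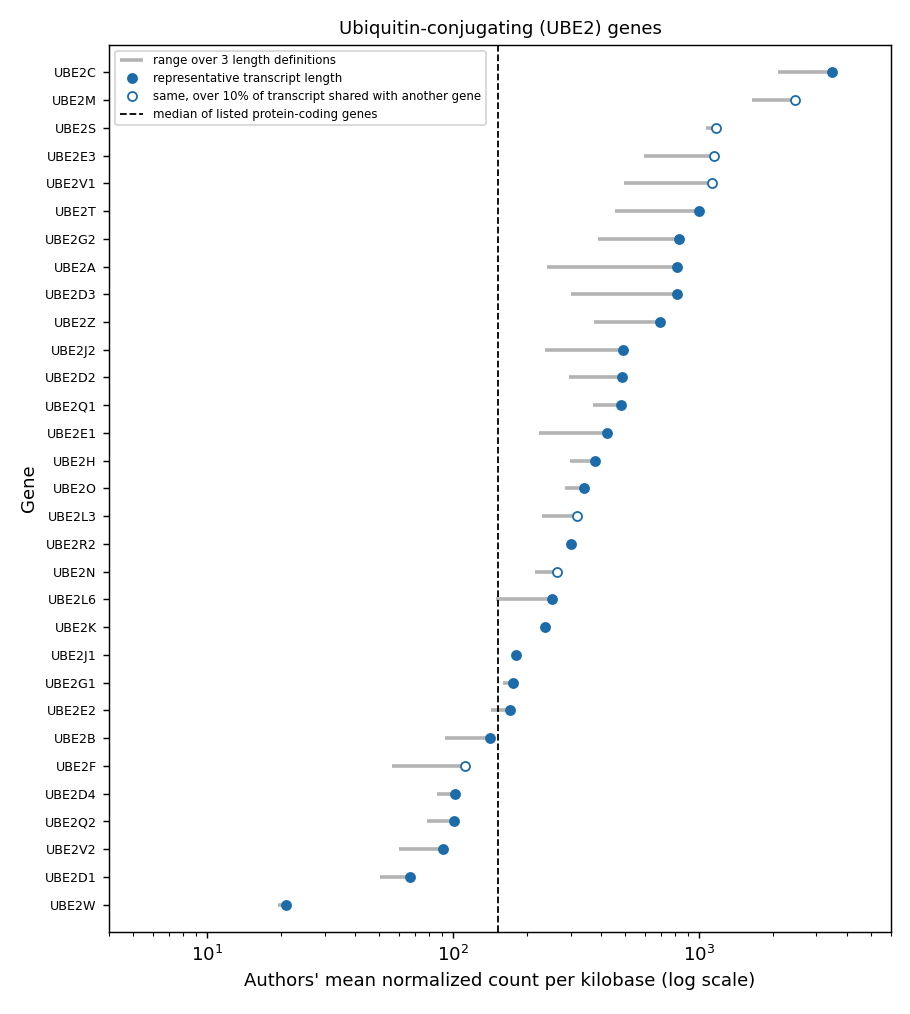
Level per kilobase of UBE2 genes, as the authors' mean normalized count divided by transcript length, on a log scale. Points use the representative transcript, open points mark genes that share over 10% of its 31-base runs with another gene, grey bars span the representative, longest and merged exon lengths, and the dashed line is the median of 152 for listed protein-coding genes on the representative length. *UBE2C* is highest at 3456 and *UBE2W* lowest at 21.0.

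By role, the E2 enzymes that build ubiquitin chains ran from 91.2 for *UBE2V2* to 3456 for *UBE2C*, with 8 of 9 above the median of listed protein-coding genes. Among them, *UBE2N*, the enzyme of lysine-63 chains, had 264 per kilobase, and *UBE2K* and *UBE2R2*, which build lysine-48 chains, had 236 and 301. Among the 10 genes whose products work with many E3 ligases, 7 lay above that median, from *UBE2E2* at 170 to *UBE2E3* at 1147. Of the 5 that carry or serve ubiquitin-like modifiers, 4 were above it. These included *UBE2Z*, which accepts ubiquitin and FAT10 from UBA6, at 691. *UBE2L6*, the E2 of ISG15, had 252, and the second NEDD8 enzyme *UBE2F* had 112 against 2456 for *UBE2M*. *UBE2F* shares 29.9% of its runs with the read-through gene *UBE2F-SCLY*. Both membrane-anchored enzymes of the endoplasmic reticulum were above the median of listed genes, *UBE2J2* at 489 and *UBE2J1* at 180. The large hybrid enzyme *UBE2O*, which acts as E2 and E3 at once, had 339 per kilobase.

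The deubiquitinases were spread around the middle of the listed genes by level per kilobase. Before division by length, their median mean normalized count of 741 was above that of listed protein-coding genes, at 526. Their representative transcripts are longer, with a median of 5379 against 3439 bases. Of the 43 USP genes, 21 (48.8%) lay above the median level per kilobase of listed protein-coding genes, 2 lay in the highest 10% and 4 in the lowest 10%. Their level per kilobase ranged from 8.08 for *USP6* to 1595 for *USP22*, with a median of 133. The top 3 genes gave 35.5% of the summed level per kilobase.

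*USP22* (ENSG00000124422), the deubiquitinase of the SAGA coactivator that acts on histone H2B, was the highest USP transcript. It lies on chromosome 17 from 20999596 to 21043760. Its mean normalized count of 8279 was the largest of all 75 genes, and over 5189 bases it gave 1595 per kilobase. *USP39*, a spliceosome component that has lost protease activity, followed at 997, and *USP5*, which takes apart unanchored ubiquitin chains, at 885. *USP22* and *USP39* were the 2 USP genes in the highest 10% of listed protein-coding genes.

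On the representative length a gap lay between these 3 genes and the rest. With merged exon length it was narrow, at 551 for *USP39* against 459 for *USP1*. On the representative length *USP1*, which removes ubiquitin from FANCD2 and PCNA, came next at 493. *USP11* had 469, *USP19*, anchored in the endoplasmic reticulum, had 356, *USP7*, which acts on MDM2 and p53, had 354, and *USP4* had 343. *USP14*, which works on the proteasome, had 282 per kilobase.

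The largest members had many reads but ordinary levels. *USP34*, *USP9X* and *USP24* have coding sequences of 10638, 7662 and 7860 bases. Their mean normalized counts of 2671, 2526 and 2176 were among the highest of the family, while their levels per kilobase were 229, 201 and 201. *USP8*, which acts on endosomes, and *USP15* have long 3′UTRs. Their mean normalized counts were close to the USP median of 741, and their levels per kilobase were low, at percentiles 19.4 and 22.5. Mean normalized counts of 778 and 741 over representative transcripts of 18865 and 14971 bases gave 41.2 and 49.5 per kilobase. The levels assume the full 3′UTR, and which 3′UTR forms these cells use was not tested.

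The lowest 5 were *USP6* at 8.08, *USP44* at 11.6, *USP45* at 16.2, *USP43* at 16.4 and *USP30* at 24.3 per kilobase. *USP44* acts on histone H2B and in the spindle checkpoint, and *USP30* resides on mitochondria. Their mean normalized counts lay between 46.5 for *USP44* and 95.4 for *USP45*, at percentiles 11.8 and 23.9 of all listed genes. GENCODE holds 7 further protein-coding genes that fit the naming rule and are not among the genes the authors listed. They are *UBE2U*, *USP2*, *USP26*, *USP27X*, *USP29*, *USP50* and *USP51*. The levels of both families therefore describe listed members only.

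**Figure D2:**
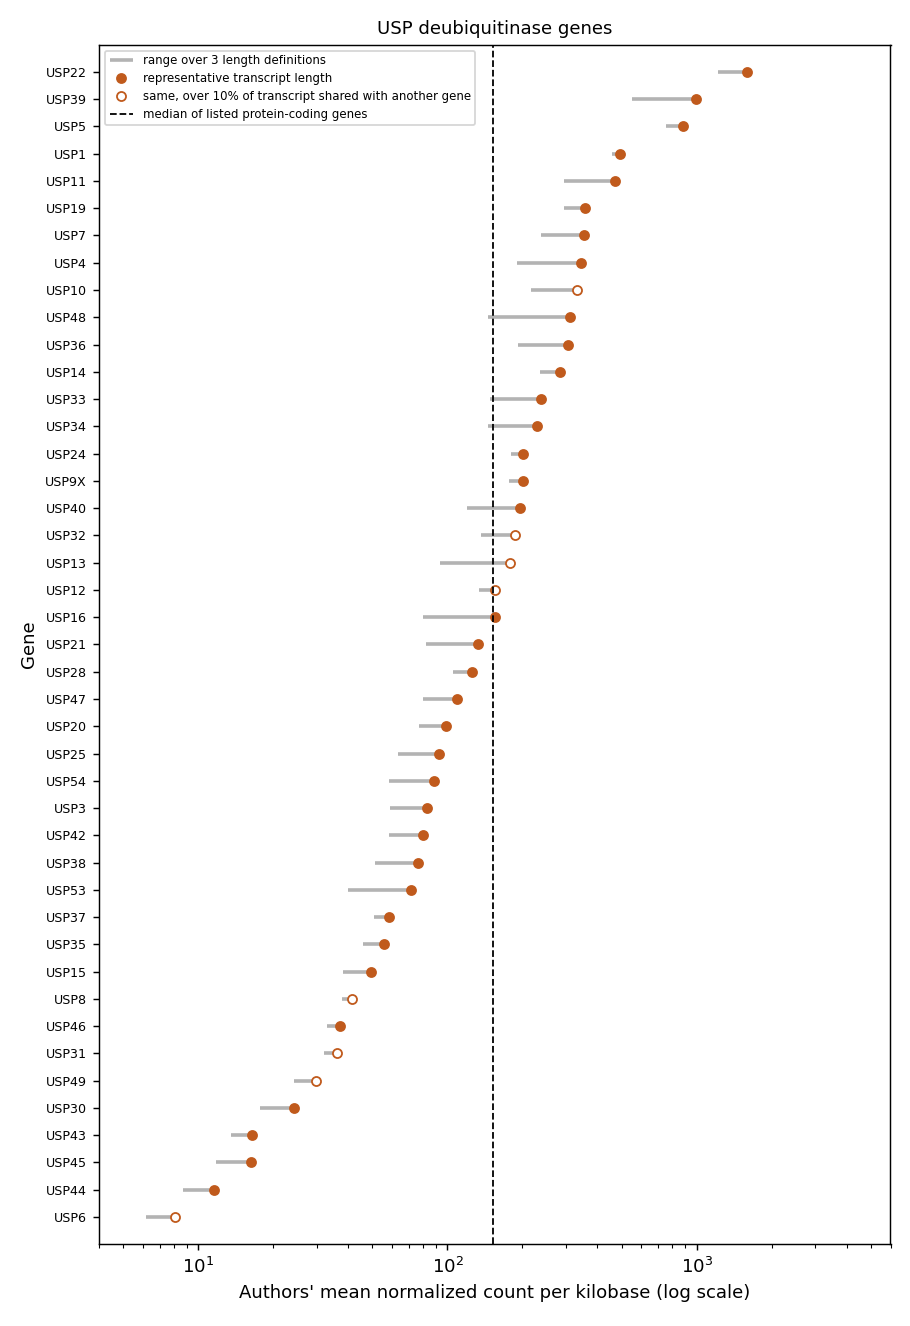
Level per kilobase of 43 USP genes on a log scale, drawn as for the UBE2 genes, with grey bars over the 3 length definitions and open points for genes that share over 10% of their 31-base runs with another gene. On the representative length *USP22*, *USP39* and *USP5* lie between 885 and 1595, above the other 40 genes, and *USP6* is lowest at 8.08.

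By role, the 3 genes tied to the proteasome and to free ubiquitin chains were all above the median of listed protein-coding genes, at 885 for *USP5*, 282 for *USP14* and 178 for *USP13*. Of 6 genes for histone deubiquitination, *USP22* at 1595 and *USP16*, which acts on histone H2A, at 155 were above it. The others were *USP21* at 133, *USP3* at 83.1, *USP49* at 29.6 and *USP44* at 11.6. The genes of the DNA damage response ran from 109 for *USP47* to 493 for *USP1*. Of 7 genes for endosomes, membranes and organelles, 3 were above the median of listed genes, *USP19*, *USP33* and *USP32*. The 7 genes grouped under signalling ran from 49.5 for *USP15* to 469 for *USP11*, and 5 were above it.

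Set side by side, the median level per kilobase of UBE2 genes was 2.70 times that of USP genes. Of the UBE2 genes, 26 of 32 lay above the USP median, and 5 of 43 USP genes lay above the UBE2 median. Without division by length the ratio of the medians of the mean normalized count was 1.65. The transcripts differ in size. The representative transcript had a median of 2856 bases in UBE2 genes and 5379 in USP genes, and the coding sequence a median of 543 against 2943 bases. Across genes, level per kilobase and transcript length had a Spearman rho of -0.51 in UBE2 genes, -0.38 in USP genes and -0.36 in all listed protein-coding genes. Length enters both quantities, genes are not replicates, and these values are descriptions.

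**Figure D3:**
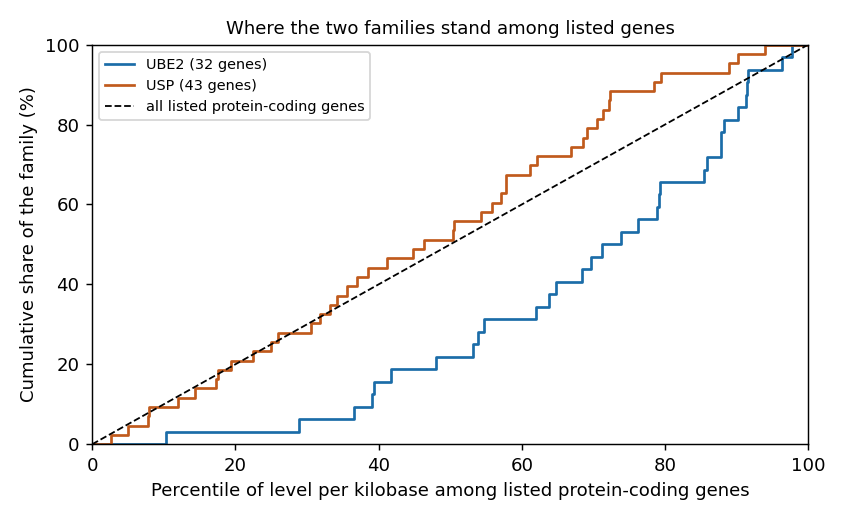
Cumulative share of each family, in percent, against the percentile of the level per kilobase among 12408 listed protein-coding genes. The UBE2 line stays below the diagonal over most of its range, since 25 of 32 genes lie above percentile 50, and the USP line runs close to the diagonal, with 21 of 43 genes above it.

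Close paralogs differed in level. Human E2 enzymes have near-identical copies, and 10 of the 32 UBE2 proteins, as translated from GENCODE coding sequences, were at least 85% identical to another one in the family, against 2 of 43 USP proteins. In the UBE2D set, whose members serve a very wide range of E3 ligases, *UBE2D3* had 814 per kilobase, *UBE2D2* 486, *UBE2D4* 102 and *UBE2D1* 66.7. *UBE2D3* was therefore 12.2 times as high as *UBE2D1*, at 88.4% protein identity, and 6.02 times on the merged exon length. *UBE2D3* was above *UBE2D2*, with 97.3% identity, on each length, but the size of the ratio rests on the length chosen. It was 1.67 on the representative transcript, 1.30 on the longest and 1.02 on the merged exon length. By mean normalized count it was 2.47. Only 2.00% of the 31-base runs of the *UBE2D2* transcript occur in another gene, mainly *UBE2D3*. For *UBE2D3* the share was 7.49%, with 4.24% of its runs in the pseudogene *UBE2D3P1*. Most runs of either transcript therefore occur in no other gene, and how reads were assigned was not tested.

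*UBE2A* was 5.79 times as high as *UBE2B*, its autosomal counterpart with 95.4% identity, and 2.60 times on the merged exon length. In the UBE2E set, *UBE2E3* at 1147 exceeded *UBE2E1* at 421 and *UBE2E2* at 170. *UBE2E3* shares 17.3% of its runs with the pseudogene *UBE2E4P*. The inactive partners *UBE2V1* and *UBE2V2* stood 12.3 times apart, with the reservation on *UBE2V1* given above. *UBE2L3* and *UBE2L6*, with 54.5% identity, had 318 and 252 per kilobase. Their ratio was 1.26 on the representative length, 1.55 on the merged exon length and 2.96 by mean normalized count, and *UBE2L3* shares 13.7% of its runs with other genes.

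Among USP paralogs, *USP5* was 4.97 times as high as *USP13*, or 8.04 times on the merged exon length, and *USP12* 4.19 times as high as *USP46*, its WDR48-associated counterpart with 87.6% identity. *USP13* shares 31.7% of its runs with other genes, mostly with an annotated gene without a symbol on the same strand, and *USP12* shares 13.4%, so both ratios are uncertain. In the set of *USP4*, *USP11* and *USP15*, the first 2 had 343 and 469 and *USP15* had 49.5 per kilobase. By mean normalized count they were less far apart, at 1397, 1500 and 741. *USP33* had 237 against 98.9 for *USP20*. The pairs *USP25* and *USP28*, at 92.7 and 125, and *USP53* and *USP54*, at 71.6 and 88.5, differed by less than 1.5 times on the representative length.

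The widest difference was between *USP32* at 187 and *USP6* at 8.08 per kilobase, a ratio of 23.2. *USP6* is a hominoid gene that arose from *USP32* and a TBC domain gene, and its transcript shares 18.0% of its 31-base runs with *USP32*. Over all other genes *USP6* shares 31.7% of its runs. *USP32* shares 40.9% of its runs with other genes, and 23.0% of its runs occur in *USP6*. Reads of the shared part can belong to either, so both values and their ratio are uncertain. With so unequal levels the value of *USP6* is the more uncertain. Of the other low genes, *USP49* shares 61.1% of its runs with an annotated gene without a symbol on the same strand.

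**Figure D4:**
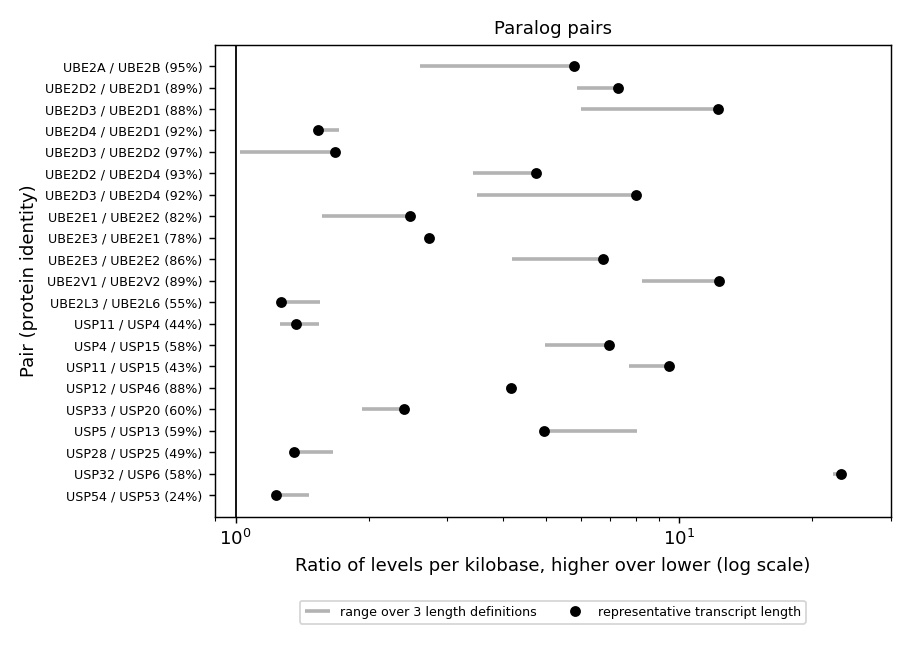
Ratio of the levels per kilobase within 21 paralog pairs, higher over lower, on a log scale. Points use the representative transcript, grey bars span the 3 length definitions, and percentages are protein identities. The ratio of *USP32* to *USP6* is largest at 23.2, and that of *UBE2D3* to *UBE2D2* falls from 1.67 to 1.02 with the length used.

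Other genes of the pathway were set beside the families. The median of the 8 E1 genes was 243. They ran from 61.3 for *UBA7*, the E1 of ISG15, to 1702 for *SAE1*, a subunit of the SUMO E1. *UBA1*, the main E1 of ubiquitin, had 1115. *CDC34*, an E2 close to *UBE2R2* and outside the symbol rule, had 993 per kilobase against 301 for *UBE2R2*. Deubiquitinases of other families were listed for 26 of the 31 symbols searched. Their median was 138, next to the USP median of 133, and *UCHL3* was highest at 847.

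At least 1 match to the AUA element was found in the 3′UTR of 30 of 32 UBE2 genes (93.8%) and of 41 of 43 USP genes (95.3%). Of all 12349 listed protein-coding genes with a 3′UTR of at least 7 bases, 84.8% had a match. The 4 members without one were *UBE2M*, *UBE2J2*, *USP39* and *USP4*, whose 3′UTRs have 377, 1291, 475 and 1149 bases. *UBE2M* and *USP39* were the second highest genes of their families by level per kilobase. At least 3 matches were found in 24 of 32 UBE2 genes and 34 of 43 USP genes (79.1%), against 53.1% of all. The 3′UTRs were also long. Their median length was 1892 bases in UBE2 and 1901 in USP genes, against 1378 in all. Pooled over all 3′UTR bases of a group, UBE2 genes had 2.70 matches per kilobase, USP genes 3.24 and the 12349 protein-coding genes 2.79. Genes with long 3′UTRs weigh most in such a pooled value, and *USP8* and *USP15* hold 60 and 55 of the 399 USP matches. No test was made of these shares and densities.

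Among USP genes the most matches were in *USP8*, with 60 over 15333 bases, *USP15*, with 55 over 12014 bases, and *USP45*, with 26 over 3391 bases. Among UBE2 genes they were in *UBE2W*, with 38 over 7883 bases, *UBE2V2*, with 20 over 3880 bases, and *UBE2K*, with 16 over 4358 bases. By contrast *USP22* had 3 matches in 3435 bases, and *UBE2C* had 1 in 185 bases. The *USP22* match shown above starts at base 1851 of the 3′UTR. Across genes the number of matches and the length of the 3′UTR had a Spearman rho of 0.72 in UBE2 and 0.78 in USP genes, a description in which length enters the count. The rho of matches with the mean normalized count was -0.28 and -0.22.

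**Figure D5:**
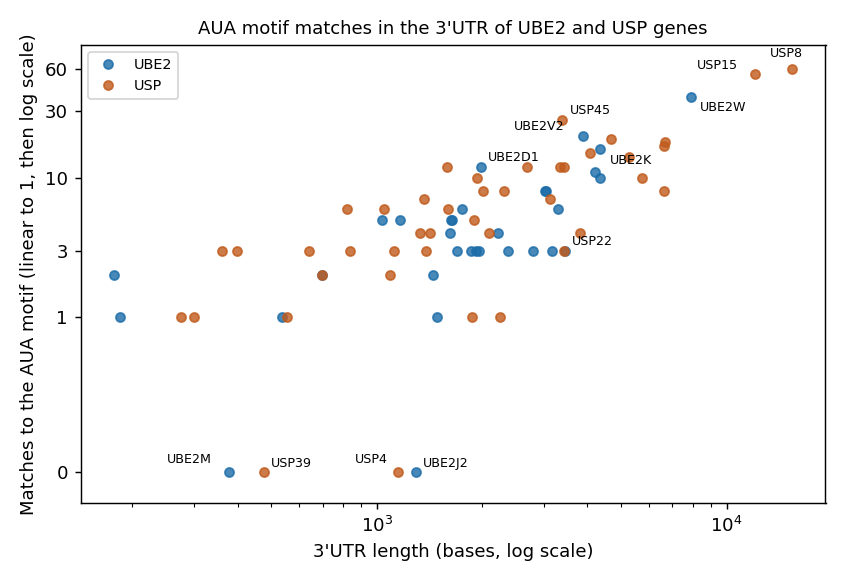
Matches to the AUA element against 3′UTR length in bases on a log scale, 1 point per gene, UBE2 genes in blue and USP genes in orange. The vertical axis is linear up to 1 and logarithmic above it. *USP8* with 60 and *USP15* with 55 matches have the longest 3′UTRs, and *UBE2M*, *UBE2J2*, *USP39* and *USP4* have none.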

How the data were processed

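Total RNA of MDA-MB-231 cells was sequenced by the authors from stranded total RNA libraries with ribosomal depletion, as paired ends. The submitters' processing notes name Salmon, DESeq2 and hg38 without roles or versions, and the annotation is not given in the sources used here. The authors' deposited table has 1 row per gene and no column per library. The signal of a gene in the authors' deposited table, the only value used, is a mean over libraries of counts divided by size factors (the mean normalized count). The other 5 numeric columns (log2 fold change, its standard error, a statistic, a p-value and an adjusted p-value) are the authors' own comparison and were not used. No test across samples was therefore possible, although groups were set by the sample labels.

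Identifiers were joined to GENCODE release 44 (GRCh38), which holds 15829 of 15917. The representative transcript was MANE Select for all 75 members. A 31-base run was counted as shared when a transcript of another gene contained it. Motif matches were counted with overlaps. Protein identity came from global alignment. Genes named are the 8 highest and 5 lowest of each family, fixed paralog sets and role groups, and members with most or no matches. Genes with shared reads, and *RBMS3*, were named after their values were seen. The members and lists were chosen with earlier results of these data known. Values of 1 UBE2 member and of the ubiquitin genes are not reported here. Functions were tested on simulated data. Python 3.11.15, pandas 2.3.3, numpy 2.4.6, SciPy 1.17.1, Biopython 1.88 and matplotlib 3.10.9 were used.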

Additional observations from a re-analysis of the deposited data

How the results depend on the processing

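Over 5 results and 16 alternatives, 15 stayed within 1.5 times of the value reported. Counts near the family size, such as 30 of 32 UBE2 genes with a motif match, could cross this limit only downward. Requiring at least 3 matches gave 24 of 32 UBE2 and 34 of 43 USP genes and still counted as unchanged. The tally therefore says little about such counts. The ratio of the UBE2 median to the USP median was 2.70 per kilobase and 1.65 for the mean normalized count not divided by length, by construction, since USP transcripts are longer. It was 2.92 with the longest transcript and 2.88 with merged exon length. UBE2 genes above the median of listed genes numbered 25 to 26 of 32, and 19 of 22 without near-identical paralogs. For USP genes these were 20 to 21 of 43, and 20 of 41. With merged exon length, *UBE2A* and *USP4* left the 8 highest of their families and *UBE2D4* the 5 lowest, and with the longest transcript *UBE2T* left the 8 highest. With the longest 3′UTR, 30 UBE2 and 40 USP genes had a motif match.

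No paired analysis was possible because the table has no column per library. Leaving out replicates, other normalizations and each hairpin alone could not be run for the same reason. The mean normalized count blends libraries that were not identified, the depth is unknown, and low levels such as that of *USP44* are the least certain.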

Other observations

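Annotated exons on the opposite strand overlap exons of 9 of 32 UBE2 genes (28.1%) and 20 of 43 USP genes (46.5%), against 42.7% of listed protein-coding genes. On the same strand 3 UBE2 genes (9.38%) and 5 USP genes (11.6%) overlap another gene, against 19.8%. The last group holds *UBE2V1*, *UBE2F*, *UBE2W*, *USP4*, *USP13*, *USP15*, *USP31* and *USP49*. *USP8* overlaps *USP50*, another family member, on the opposite strand. The libraries keep strand, and whether the counting used it is not given in the sources used here.

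AATAAA occurs in the 3′UTR of 28 of 32 UBE2 genes (87.5%) and 38 of 43 USP genes (88.4%), against 85.3% of listed protein-coding genes. Over 10% of the 31-base runs of the transcript occur in another gene for 7 UBE2 and 8 USP genes, and no run does for 13 UBE2 and 15 USP genes.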
